A study of Mus musculus with 18 samples.

Results

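The genes described here are 10 genes of the antigen presentation machinery, chosen by name, namely the MHC class II chains H2-Aa, H2-Ab1 and H2-Eb1, the invariant chain Cd74, the peptide exchange chains H2-DMa and H2-DMb1, the class II transactivator Ciita, and the costimulatory genes Cd80, Cd86 and Cd40. All 10 were found among the 49315 genes counted, by matching symbols to Ensembl identifiers on GRCm38, and all 10 had enough counts to be tested in every comparison. They were measured by RNA-seq in bone marrow-derived macrophages (BMDMs), which are grown from mouse bone marrow in medium conditioned by L929 cells. BMDMs came from C57BL/6J mice of 2 genotypes. HDAC3f/f mice, labelled WT, carry loxP sites around exon 7 of Hdac3, a histone deacetylase gene. M-HDAC3-/- mice, labelled HDAC3 KO, carry the same sites and a Cre recombinase driven by the Lyz2 (LysM) locus, which is active in myeloid cells. BMDMs received no cells (untreated) or K562 cells, a human leukemia line, for 45 min of coculture, then were washed and kept for 5 h. The K562 cells were either non-apoptotic (NACs) or apoptotic (ACs), the latter made by UVB exposure for 15 min and used 2 h later. The 6 groups held 3 biological replicates each, in 18 libraries of 4704491 to 26421267 counts (median 16477929).

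Class II molecules display peptides from engulfed material to CD4+ T cells. Their alpha and beta chains assemble with the invariant chain in the endoplasmic reticulum, the invariant chain is degraded in endosomes, and the DM dimer then helps to exchange the remaining fragment for a peptide. Transcription of these genes is driven by CIITA, a coactivator that joins factors of the RFX, NF-Y and CREB families on a short promoter element and that is induced in macrophages by interferon gamma. T cells also need costimulation, given by CD80 and CD86, the ligands of CD28 and CTLA-4, while CD40 receives the CD40 ligand of helper T cells.

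Hdac3, the targeted gene, did not separate the labels. It was at 3.38, 44.4 and 31.9 CPM (counts scaled by the TMM factors to a common library total) in untreated HDAC3f/f libraries and at 38.7, 11.4 and 74.5 in untreated HDAC3-/- libraries, at 48.7, 44 and 11.6 against 4.66, 34 and 42.6 with NACs, and at 7.12, 38.3 and 29.7 against 39.7, 10.1 and 17.9 with ACs. A count over the whole gene does not resolve exon 7, so these values check the total transcript only. For 14 of the 18 libraries the most similar library (Pearson r of log2 CPM over genes) carried another group's label. All 3 untreated HDAC3f/f libraries were closest to an HDAC3-/- library with NACs. Genotypes below are therefore those of the labels. The 8 macrophage markers (Adgre1, Csf1r, Cd68, Itgam, Fcgr1, Mertk, Lyz2 and Cd14) were detected in every library, with a summed level of 5945 to 19697 CPM. Flt3 reached at most 6 counts in any library and Clec9a was at 0 in 12 of 18 (dendritic cells). Of the B cell markers Pax5 was at 0 in 8, and Cd22 (7.54 to 75.6 CPM), Ighm (5.13 to 61.2), Cd79b (1.33 to 12.9) and Ebf1 (0.0466 to 1.5) were at 0 in none. The summed level of 10 dendritic cell markers, mostly Itgax, ran from 5.1 to 139 CPM, that of 10 B cell markers from 15.7 to 112 CPM, that of 10 granulocyte markers from 230 to 1294 CPM and that of 8 fibroblast markers from 5.04 to 230 CPM. RNA was taken from whole cultures, in which fewer cells of a type and less RNA per cell cannot be told apart.

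The 5 class II chain and DM genes lie in the major histocompatibility complex on chromosome 17 of GRCm38, at chr17:34282744-34287827 (minus strand, H2-Aa), chr17:34263209-34269418 (H2-Ab1), chr17:34305877-34316199 (H2-Eb1), chr17:34135182-34139101 (H2-DMa) and chr17:34153072-34160230 (H2-DMb1), the last 4 on the plus strand. Ciita (chr16:10488178-10527564), Cd86 (chr16:36603869-36666081, minus strand) and Cd80 (chr16:38458933-38486933) are all on chromosome 16, and Cd40 is at chr2:165055627-165072948.

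Promoters of 5 of the 10 genes matched a RefSeq entry of GRCm38.p6. The letters TGATTGG, part of the Y box read by NF-Y, and AACTGATG were searched on both strands in the 250 bases before each start. The first occurs in 7.23% and the second in 0.676% of the 32851 promoters of the same table. The promoters of 2 chains whose transcripts moved together, and the site of H2-DMb1, are shown 5′ to 3′ on the strand of the gene, with matches to either set of letters in capitals. The lines are H2-Aa (chr17:34287829-34287978), H2-Eb1 (chr17:34305712-34305861) and H2-DMb1 (chr17:34153118-34153144).
H2-Aa: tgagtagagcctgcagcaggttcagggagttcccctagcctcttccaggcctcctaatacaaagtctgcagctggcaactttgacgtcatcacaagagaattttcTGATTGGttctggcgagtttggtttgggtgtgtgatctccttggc
H2-Eb1: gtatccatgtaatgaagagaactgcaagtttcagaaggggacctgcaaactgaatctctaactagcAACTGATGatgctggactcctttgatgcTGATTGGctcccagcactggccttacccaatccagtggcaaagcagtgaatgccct
H2-DMb1: attcactcagTGATTGGtctgacctgc
TGATTGG starts 50 bases before the start of H2-Aa, 61 before that of H2-Eb1 and 63 before that of H2-DMb1. AACTGATG starts 89 bases before the start of H2-Eb1 and 92 before that of H2-DMb1, and was not found in the H2-Aa window. Neither set of letters was found in the windows of H2-DMa, for which 2 starts are listed, or of Cd80. The 2 H2-DMa windows begin at 34122582 and 34125268, while the bounds of the gene given above begin at 34135182. The bases next to those bounds were therefore not searched for H2-DMa. The H2-DMb1 site lies inside the gene bounds given above, which begin before the RefSeq start. A match of letters is a description of the sequence and does not show binding.

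Compared per length, the invariant chain and the class II chains were the highest of the 10 genes and Ciita the lowest. The median over 18 libraries was 171 CPM per kilobase of exon for Cd74, 154 for H2-Ab1, 132 for H2-Eb1 and 94.5 for H2-Aa. DM and CD86 transcripts came next, with 28.9 for H2-DMb1, 27.2 for Cd86 and 19.9 for H2-DMa. Cd40 (2.96), Cd80 (1.45) and Ciita (0.196) were far lower. H2-Aa was above H2-DMb1, H2-DMa above Cd40 and Cd80 above Ciita in all 18 libraries, while Cd74 was above H2-Ab1 in 12, H2-DMb1 above Cd86 in 10 and Cd86 above H2-DMa in 9.

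The 3 class II chains rose and fell together from library to library, and their ranges overlapped in each of the 9 comparisons of 2 groups. H2-Ab1, which encodes the beta chain of I-A, was at 40.6, 268 and 264 CPM in untreated HDAC3f/f libraries, 383, 277 and 183 after NACs, and 55.9, 451 and 226 after ACs. In HDAC3-/- libraries it was at 243, 238 and 791 untreated, 50.7, 307 and 262 after NACs, and 196, 182 and 392 after ACs. The group means spanned 191 to 424 CPM, while replicates differed 6.05- to 8.06-fold in 3 groups, in which replicate 1 was the lowest library of untreated HDAC3f/f, of HDAC3f/f with ACs and of HDAC3-/- with NACs. The same 3 libraries held the 3 lowest values of H2-Aa, the alpha chain of I-A (25.3, 32.7 and 40.4 CPM, against 125 to 658 in the other 15), and of H2-Eb1, the beta chain of I-E (25.9, 28.8 and 34.2 CPM, against 76.8 to 468). They also held the lowest Hdac3 (3.38, 7.12 and 4.66 CPM) and 3 of the 4 highest values of Cd86 (373, 334 and 249 CPM). Whether what sets these libraries apart has a part in the results below was not tested beyond leaving each out in turn.

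**Figure D1:**
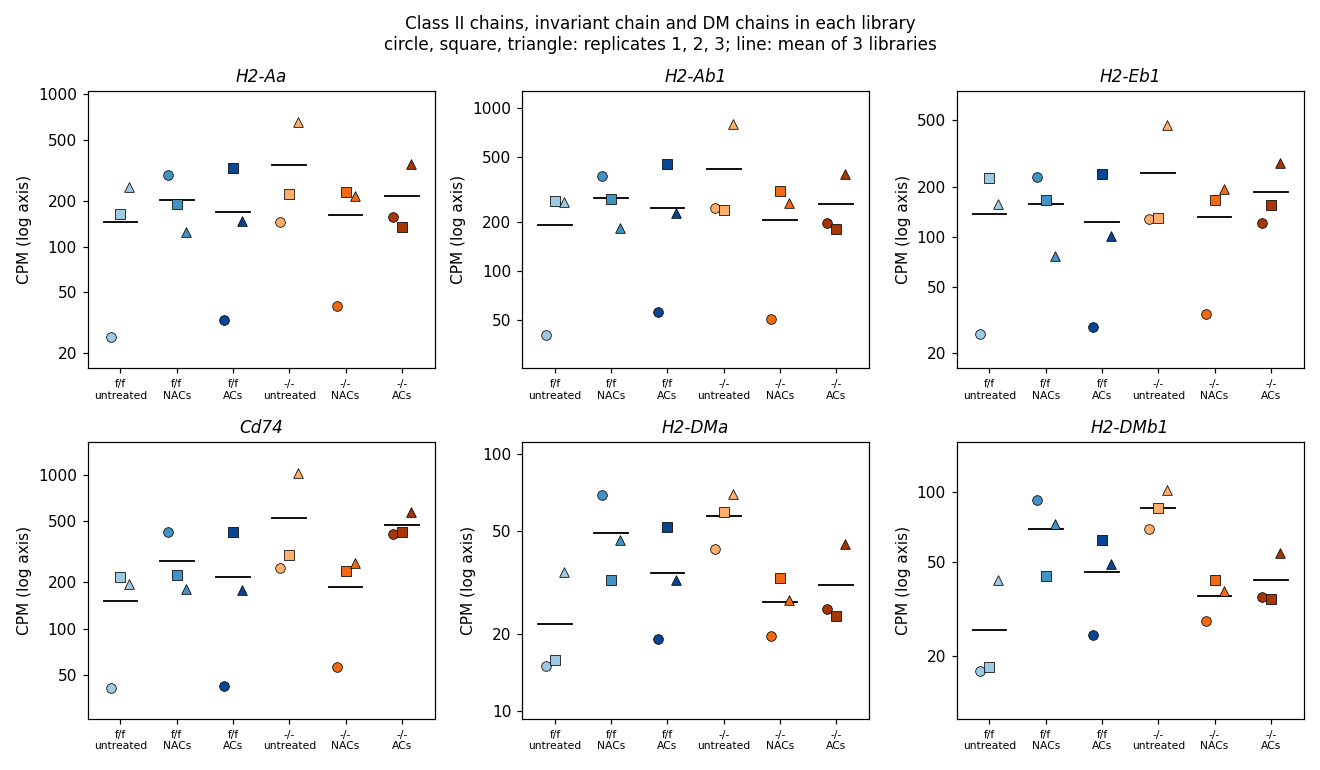
Levels in CPM (log axis) of the 3 class II chains, the invariant chain and both DM chains in each of 18 libraries, by group (f/f, HDAC3f/f; -/-, HDAC3-/-; markers, replicates 1 to 3; line, mean). The 3 libraries with the lowest H2-Aa, at 25.3, 32.7 and 40.4 CPM, belong to 3 different groups, and the DM chains of untreated HDAC3-/- libraries sit above those of untreated HDAC3f/f libraries.

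None of the 3 chains was called (adjusted p below 0.05 over all genes tested) in any of the 12 comparisons. The largest difference between genotype labels was in untreated cells, with a log2 fold change of 1.13 ± 0.689 (SE) for H2-Aa, 1.02 ± 0.64 for H2-Ab1 and 0.68 ± 0.672 for H2-Eb1 (edgeR, adjusted p = 0.241, 0.251 and 0.465). With ACs it was 0.25 ± 0.659, -0.005 ± 0.593 and 0.51 ± 0.61. The standard errors of 0.486 to 1.01 log2 units in the 2-group comparisons reflect the spread between replicates described above. H2-Aa followed H2-Ab1 with a Pearson r of 0.99 (Spearman 0.93) over the 18 libraries, and of 0.97 without the 2 libraries farthest from the median. H2-Aa divided by H2-Ab1 stayed between 0.584 and 0.938 in counts. These libraries share the groups and the differences in composition described above, so the correlation is a description only.

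Cd74, which encodes the invariant chain and lies at chr18:60803848-60812646, departed most from the class II chains in HDAC3-/- libraries with ACs. It was at 41.7, 218 and 195 CPM in untreated HDAC3f/f libraries, 423, 223 and 181 after NACs, and 42.4, 425 and 180 after ACs. In HDAC3-/- libraries it was at 247, 303 and 1022 untreated, 56.4, 237 and 268 after NACs, and 413, 426 and 570 after ACs. All 3 HDAC3-/- libraries with ACs were above all 3 with NACs, and untreated HDAC3-/- libraries were all above untreated HDAC3f/f libraries. Neither difference passed the test over all genes, with log2 fold changes of 1.35 ± 0.449 (edgeR, adjusted p = 0.0645) and 1.66 ± 0.637 (adjusted p = 0.0864). Between genotypes with ACs the ranges overlapped, with 1.05 ± 0.615 (adjusted p = 0.312). With no filter on low counts both passed (adjusted p = 0.0199 and 0.0257), DESeq2 called the untreated difference (adjusted p = 0.0195), and that with ACs against NACs passed in 2 of 6 fits with 1 library fewer, at 0.92 to 1.66 (adjusted p = 0.0155 to 0.31), the lowest without HDAC3-/- NACs replicate 1. The untreated difference passed in 0 of 6 such fits (adjusted p = 0.105 to 0.341), and was 0.83 without HDAC3-/- replicate 3, the library at 1022 CPM. In the fits without untreated HDAC3f/f replicate 2 or 3 or HDAC3-/- replicate 3, edgeR called 0 of all genes. With the correction for gene length and GC content, described below, the untreated difference was 0.65 (adjusted p = 0.612).

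Within a library, the ratio of Cd74 counts to the summed counts of the 3 chains needs no scaling between libraries. It was 0.872, 0.905 and 0.558 in HDAC3-/- libraries with ACs, a mean of 0.778 ± 0.192 (SD, n = 3), and between 0.291 and 0.533 in each of the other 15 libraries. Untreated HDAC3-/- libraries followed with 0.479, 0.514 and 0.533, also without overlap with the remaining groups. Those groups had means of 0.359 to 0.43 and a highest library at 0.471. This ratio was examined after the levels had been seen and is given with no test. The 3 libraries that were low in class II had 0.454, 0.361 and 0.45, within the range of the rest. The summed dendritic cell markers, mostly Itgax, were at 40.1 to 94.9 CPM in HDAC3-/- libraries with ACs. Untreated HDAC3-/- libraries had 12.1 to 139 CPM, HDAC3f/f libraries with NACs 15.6 to 52.1 and untreated HDAC3f/f libraries 5.1 to 12.1. The 2 groups compared with HDAC3-/- ACs above were at 11.8 to 13.3 CPM (HDAC3-/- with NACs) and 7.12 to 19.7 (HDAC3f/f with ACs). Itgax was called in both comparisons, as 1 of 2 such markers tested (2.47, edgeR, adjusted p = 0.00101, and 2.64, adjusted p = 0.0153). The median of the 2 markers was 2.08 and 1.26, so in the second comparison the other marker went the other way. The part of Itgax in the Cd74 values was not tested.

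**Figure D2:**
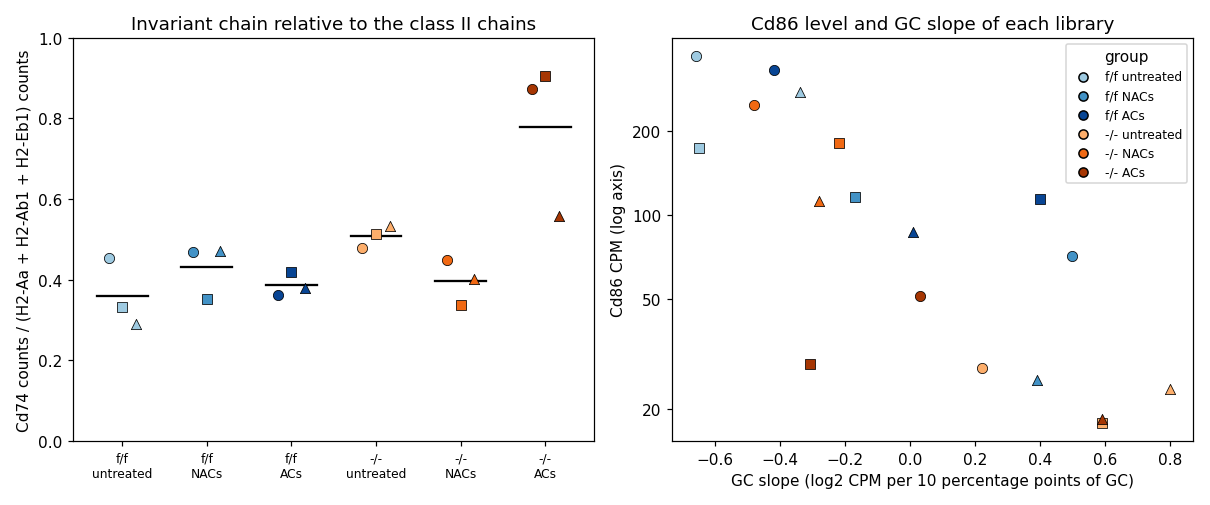
Left, Cd74 counts divided by the summed counts of H2-Aa, H2-Ab1 and H2-Eb1 in each library by group (line, mean of 3); the 3 HDAC3-/- libraries with ACs, at 0.558 to 0.905, lie above the other 15. Right, Cd86 level (CPM, log axis) against the slope of log2 CPM on GC content in the same library; most libraries with a low slope had high Cd86, up to 373 CPM, with 1 HDAC3-/- library with ACs (slope -0.31) at 29.2 CPM as the exception.

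The DM chains were the class II genes that passed the test most often. H2-DMb1 was at 17.2, 17.9 and 41.9 CPM in untreated HDAC3f/f libraries and at 69.1, 84.8 and 102 in untreated HDAC3-/- libraries, with no overlap. It rose 3.17-fold between these labels (log2 fold change 1.66 ± 0.443, edgeR, adjusted p = 0.0364; two-sided exact permutation p = 0.1, the smallest that 3 libraries against 3 can give). H2-DMa, its partner, went from 14.9, 15.8 and 34.7 CPM to 42.5, 59.4 and 69.5, again with no overlap, but was not called (1.32 ± 0.441, adjusted p = 0.0608). With NACs, HDAC3f/f libraries had 92.4, 43.6 and 72.5 CPM of H2-DMb1 and HDAC3-/- libraries 28, 42.2 and 37.8. The order of the labels was thus the opposite of that in untreated cells, at -0.92 ± 0.336, which did not pass (adjusted p = 0.132). H2-DMa was likewise at 69.1, 32.4 and 46.1 CPM against 19.5, 33 and 27.1 with NACs (-0.86 ± 0.34, adjusted p = 0.147). With ACs the ranges overlapped, at 24.5, 62.4 and 49 CPM against 35.7, 35 and 55 for H2-DMb1, and at 19.1, 51.9 and 32.3 against 24.9, 23.5 and 44.4 for H2-DMa.

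In HDAC3f/f cells, NACs raised both DM chains over no treatment, by 1.40 ± 0.38 for H2-DMb1 (edgeR, adjusted p = 0.0255; exact permutation p = 0.1) and 1.13 ± 0.378 for H2-DMa (adjusted p = 0.0454; exact permutation p = 0.2, ranges overlapping). In HDAC3-/- cells the same contrast was -1.08 ± 0.324 for H2-DMb1 and -0.95 ± 0.346 for H2-DMa (adjusted p = 0.0671 and 0.108). DESeq2 called both (-1.23 and -1.10, adjusted p = 0.00989 and 0.031). With the correction for gene length and GC content they were -0.64 and -0.21 (edgeR, adjusted p = 0.266 and 0.726). The difference between the genotypes in the response to NACs was -2.37 ± 0.541 for H2-DMb1 (adjusted p = 0.00343) and -1.97 ± 0.549 for H2-DMa (adjusted p = 0.0101), in an interaction added after the data had been seen. This interaction called 34.8% of all 13005 genes tested, so a call was common among genes there. With the correction for gene length and GC content H2-DMa fell to -0.55 and lost its interaction call, and H2-DMb1 kept its own at -1.58. Of 5 B cell markers tested, Cd79b rose with NACs in HDAC3f/f cells (1.63 ± 0.48, edgeR, adjusted p = 0.0308), where 8.52% of all genes were called. With the correction it was 1.22 (adjusted p = 0.229), and its call held in 2 of 6 fits with 1 library fewer. Of 6 tested in the interaction, Cd79b, Cd79a and Cd22 passed with the sign of the DM chains (-2.65, -3.98 and -1.72, adjusted p = 0.00896, 0.0328 and 0.0397). All 3 calls were lost with the correction (adjusted p = 0.101, 0.169 and 0.237). They held in 12, 6 and 7 of 12 fits with 1 library fewer. Itgax, an integrin of dendritic cells and activated macrophages, also passed with that sign. Between untreated labels (3.15, edgeR, adjusted p = 0.0331) and with NACs in HDAC3f/f cells (1.93, adjusted p = 0.0106) it was the 1 dendritic cell marker tested. These 2 calls were lost with the correction (adjusted p = 0.112 and 0.169). They held in 1 of 6 and 3 of 6 fits with 1 library fewer (1.48 to 3.52 and 1.04 to 2.30). In the interaction Itgax passed (-4.09, adjusted p = 0.0145), also with the correction and in 12 of 12 such fits. There 2 dendritic cell markers were tested, with a median of -0.22, so the other went the other way. The part of these markers in the DM results was not tested. The corresponding interactions for ACs against untreated were -1.85 ± 0.627 and -1.55 ± 0.645 (adjusted p = 0.117 and 0.161). H2-DMb1 counts were 1.13 to 1.63 times those of H2-DMa in every library. H2-DMb2, a close copy of H2-DMb1 between which reads can be split, held 0% to 5.21% of their summed counts.

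The DM calls between 2 groups were lost in several fits with 1 library fewer, with a correction for gene length and GC content, and with library totals alone in place of TMM factors. The call of H2-DMb1 between untreated labels was lost without untreated HDAC3f/f replicate 1, 2 or 3 or HDAC3-/- replicate 2 or 3 (adjusted p = 0.164, 0.189, 0.0872, 0.0851 and 0.078) at fold changes of 1.42, 1.49, 2.13, 1.64 and 1.58, with the correction (1.17, adjusted p = 0.154) and with library totals alone (adjusted p = 0.0687). Without HDAC3f/f replicate 2 or 3 or HDAC3-/- replicate 3, and with the correction, edgeR called 0 of all genes between untreated labels. The calls with NACs in HDAC3f/f cells were lost with that correction as well, at 1.01 for H2-DMb1 (adjusted p = 0.173) and 0.37 for H2-DMa (adjusted p = 0.514), and without untreated replicate 1 or 2 or NACs replicate 1 or 3 (adjusted p = 0.162 to 0.298 for H2-DMa and 0.108 to 0.203 for H2-DMb1). They were also lost with library totals alone (adjusted p = 0.107 for H2-DMb1 and 0.215 for H2-DMa) and with all 18 libraries in one fit (0.145 for each), and that of H2-DMa with no filter (0.101). With library totals alone, in that one fit and with the correction, edgeR called 0 of all genes for NACs in HDAC3f/f cells. Of these genes, 3438, 3277 and 1984 had an unadjusted p below 0.05 in edgeR.

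Ciita was the lowest of the genes, with 4 to 56 counts per library. It was at 0.398, 0.775 and 0.549 CPM in untreated HDAC3f/f libraries, 0.784, 1.07 and 1.06 after NACs, and 0.629, 1.41 and 0.648 after ACs. In HDAC3-/- libraries it was at 1.01, 1.48 and 2.14 untreated, 0.419, 0.796 and 1.21 after NACs, and 2.15, 1.6 and 2.3 after ACs. HDAC3-/- libraries were above HDAC3f/f libraries without overlap in untreated cells (1.34 ± 0.691, edgeR, adjusted p = 0.171) and with ACs (1.08 ± 0.659, adjusted p = 0.321), and the ranges overlapped with NACs. HDAC3-/- libraries with ACs were also all above those with NACs (1.31 ± 0.614, adjusted p = 0.178). None of these passed. Ciita followed Cd74 (Pearson r 0.82, Spearman 0.86 over 18 libraries, 0.82 without the 2 farthest) and H2-Ab1 (0.62 and 0.44, 0.41 without the 2 farthest), and within groups r was 0.74 and 0.72, as a description.

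**Figure D3:**
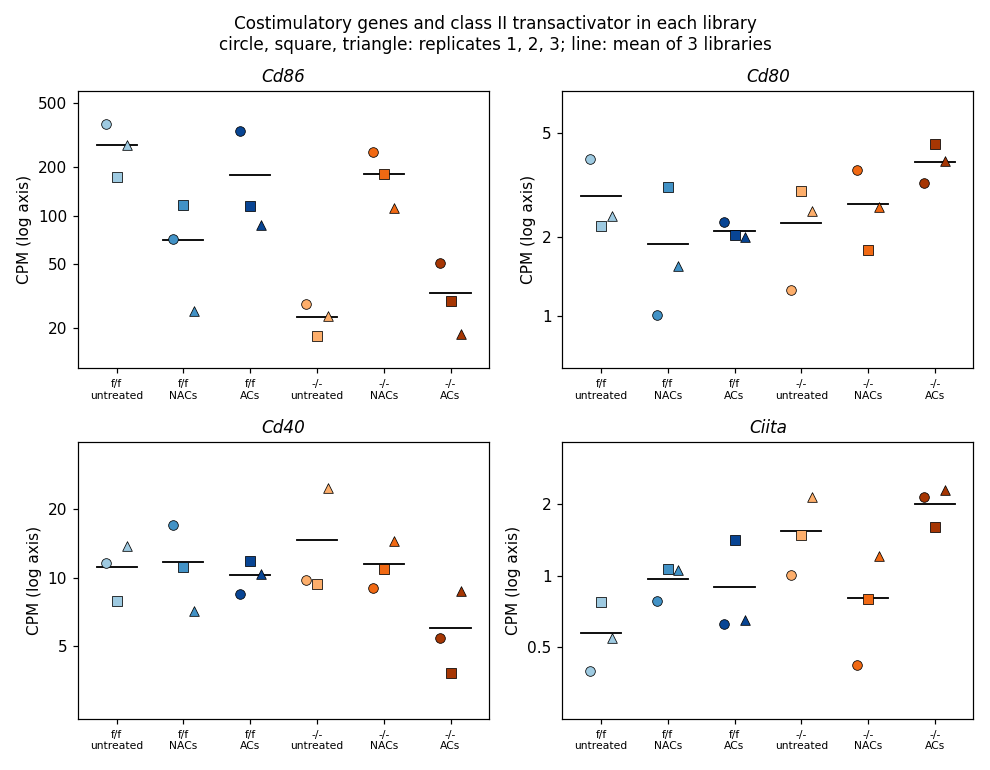
Levels in CPM (log axis) of Cd86, Cd80, Cd40 and Ciita in each of 18 libraries, by group (f/f, HDAC3f/f; -/-, HDAC3-/-; markers, replicates 1 to 3; line, mean). Cd86 spans 17.9 to 373 CPM and is lowest in HDAC3-/- cells untreated or with ACs, while Cd80 stays between 1.01 and 4.54 CPM.

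Cd86 was the gene that differed most. In untreated cells it was at 373, 174 and 277 CPM in HDAC3f/f libraries and at 28.1, 17.9 and 23.6 in HDAC3-/- libraries. With ACs it was at 334, 114 and 87.1 CPM against 50.9, 29.2 and 18.4. With NACs it was at 71.4, 116 and 25.4 CPM against 249, 182 and 112. HDAC3-/- libraries were thus below HDAC3f/f libraries without overlap in untreated cells and with ACs, and 2 of 3 of them were above every HDAC3f/f library with NACs. Cd86 fell 12.8-fold between untreated labels (log2 fold change -3.68 ± 0.458, edgeR, adjusted p = 0.0183; exact permutation p = 0.1) and 5.62-fold between labels with ACs (-2.49 ± 0.541, adjusted p = 0.0262; exact permutation p = 0.1). With NACs the difference was 1.38 ± 0.463 and did not pass (adjusted p = 0.122). It passed with no filter (1.46, edgeR, adjusted p = 0.00381) and in 2 of 6 fits with 1 library fewer. These were without HDAC3f/f NACs replicate 2 (2.05, adjusted p = 0.0137) and without HDAC3-/- NACs replicate 3 (1.64, adjusted p = 0.0168).

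Across treatments, the order of Cd86 was not the same under both labels. In HDAC3f/f cells NACs lowered it against no treatment (-2.01 ± 0.43, edgeR, adjusted p = 0.00892; exact permutation p = 0.1), and ACs did not pass against either group (1.38 ± 0.579 against NACs, adjusted p = 0.898, and -0.67 ± 0.514 against untreated, adjusted p = 0.508). In HDAC3-/- cells NACs raised it 8.83-fold (3.14 ± 0.409, adjusted p = 0.0353; exact permutation p = 0.1), and with ACs it was 5.46-fold lower than with NACs (-2.45 ± 0.432, adjusted p = 0.00132; exact permutation p = 0.1). The difference between genotypes in the response to NACs against no treatment was 5.27 ± 0.684 (adjusted p = 0.000636, in the added interaction), and that in ACs against NACs was -3.80 ± 0.807 and did not pass (adjusted p = 0.0561), but passed with DESeq2 (0.000586), with no filter (9.96e-08), with the correction for gene length and GC content (-3.17, 0.0313) and in 4 of 12 fits that left out 1 library. These comparisons share libraries, so they are not independent of each other.

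Several measures moved with Cd86. Its exons hold 45% GC, against 50.5% to 57.4% in the class II chains, Cd74 and the DM chains, and 44.7% in Cd80. The slope of log2 CPM on GC content over 12047 genes, per 10 percentage points, was -0.66 to -0.34 in untreated HDAC3f/f libraries and -0.48 to -0.22 in HDAC3-/- libraries with NACs, the 2 groups with the highest Cd86. It was 0.22 to 0.80 in untreated HDAC3-/- libraries, the group with the lowest Cd86, and -0.31 to 0.59 in HDAC3-/- libraries with ACs, the next lowest. The mitochondrial share of counts was 0.496% to 0.621% in untreated HDAC3f/f and 0.272% to 0.434% in untreated HDAC3-/- libraries, and in the opposite order with ACs, at 0.341% to 0.48% against 0.493% to 1.19%. With the correction for gene length and GC content, Cd86 kept its call between labels with ACs (-2.17, adjusted p = 0.0148) and in HDAC3-/- cells between ACs and NACs (-1.99, adjusted p = 0.0164). The calls between untreated labels (-2.77, adjusted p = 0.0689) and with NACs against untreated (-1.56, adjusted p = 0.146, in HDAC3f/f cells and 2.36, adjusted p = 0.0917, in HDAC3-/- cells) were lost. Itgax moved opposite to Cd86, from 4.11, 5.99 and 10.2 CPM to 9.05, 138 and 31.3 between untreated labels, where the ranges overlapped, and from 4.71, 8.69 and 14.1 to 51.3, 38.2 and 90.1 with ACs. Lyz2, whose locus drives the Cre, moved the way of Cd86 in 2 comparisons of 2 groups, as the 1 called of 8 macrophage markers. It was at -1.94 ± 0.55 between untreated labels (edgeR, adjusted p = 0.0425, with 11.6% of all genes called). With NACs in HDAC3-/- cells it was at 2.12 ± 0.461 (adjusted p = 0.0376, with 6.54% called). Both calls were lost with the correction (adjusted p = 0.139 and 0.0981) and held in 1 of 6 fits with 1 library fewer. In the added interaction Lyz2 (3.39), Itgam (1.95) and Cd14 (-1.82) were called (adjusted p = 0.00285, 0.0181 and 0.0169, with 34.8% called). Only Lyz2 kept that call with the correction (adjusted p = 0.0139). With ACs, where Cd86 was lower in HDAC3-/- libraries, Lyz2 was at 5387, 3025 and 3194 CPM in HDAC3f/f and 6145, 10463 and 4060 in HDAC3-/- libraries. The granulocyte gene Elane fell between labels with ACs (-2.26 ± 0.567, adjusted p = 0.0424, 1 of 10 markers, with 3.75% of all genes called). There Ltf of the same list was at 25.7, 49 and 75.1 CPM against 147, 67.5 and 162. It rose from NACs to ACs in HDAC3-/- cells (1.38 ± 0.41, adjusted p = 0.0382), where 7.38% of all genes were called. In that comparison the fibroblast collagens Col1a2 and Col3a1 rose too (2.48 ± 0.592 and 2.26 ± 0.554, adjusted p = 0.0251 and 0.0162, 2 of 7 tested). With the correction Elane and Col3a1 kept their calls (adjusted p = 0.0185 and 0.0498), and Ltf and Col1a2 lost theirs (0.0742 and 0.055). Fits with 1 library fewer kept the call of Elane in 4 of 6, Col3a1 in 3 of 6 (1.55 to 2.93), and Ltf and Col1a2 in 2 of 6. The part of these genes and of the mitochondrial share in the result was not tested.

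Fits with 1 library fewer kept the direction of Cd86 but lost some of its calls. Between labels with ACs the adjusted p was 0.314 without HDAC3-/- ACs replicate 1, at -2.91, where edgeR called 0 of all genes (1810 with an unadjusted p below 0.05), and 0.0655 without replicate 3, at -2.18. Without HDAC3f/f ACs replicate 1, a library that stood apart in class II, the fold change shrank to -1.65 (adjusted p = 0.044). Between untreated labels it rose to 0.0698 without HDAC3f/f replicate 2, 0.0872 without HDAC3f/f replicate 3 and 0.0562 without HDAC3-/- replicate 3, at fold changes of -3.91, -3.73 and -3.66. In each of these fits edgeR called 0 of all genes (2577, 3979 and 3593 with an unadjusted p below 0.05). In HDAC3f/f cells the call of NACs against untreated was lost without untreated replicate 1 (-1.70, adjusted p = 0.0686) or NACs replicate 1 or 3 (-2.03 and -1.63, adjusted p = 0.0995 and 0.0875), and also with library totals alone (-2.28, adjusted p = 0.0666) or all 18 libraries in one fit (-1.96, adjusted p = 0.145). With library totals alone and in that one fit edgeR called 0 of all genes (3438 and 3277 with an unadjusted p below 0.05). In HDAC3-/- cells the call of NACs against untreated was lost without untreated replicate 2 or 3 or any of the 3 NACs libraries (2.79 to 3.39, adjusted p = 0.0836 to 0.209). The call of ACs against NACs was lost without ACs replicate 1 (-2.91, adjusted p = 0.0919). In each of these fits in HDAC3-/- cells edgeR called 0 of all genes, with 2026 to 3463 having an unadjusted p below 0.05.

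Cd80, the other ligand of CD28, was low, with 5 to 108 counts per library. It was at 2.3, 2.05 and 2.01 CPM in HDAC3f/f libraries with ACs and at 3.23, 4.54 and 3.92 in HDAC3-/- libraries with ACs, with no overlap (0.83 ± 0.522, edgeR, adjusted p = 0.335). Untreated it was at 3.98, 2.22 and 2.42 CPM against 1.26, 3.01 and 2.53, and with NACs at 1.01, 3.12 and 1.55 against 3.63, 1.79 and 2.62. It did not pass in any comparison, and its level did not follow that of Cd86 (Pearson r 0.03, Spearman 0.04 over 18 libraries, 0.14 without the 2 farthest).

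Cd40, a receptor of the TNF receptor family, was lowest in HDAC3-/- libraries with ACs, at 5.42, 3.83 and 8.71 CPM. These were below all HDAC3-/- libraries with NACs (8.98, 10.9 and 14.5) and all untreated ones (9.8, 9.34 and 24.7). HDAC3f/f libraries had 11.6, 7.9 and 13.8 untreated, 17, 11.1 and 7.15 after NACs, and 8.49, 11.8 and 10.4 after ACs. The fold changes did not pass over all genes, at -0.94 ± 0.423 for ACs against NACs (edgeR, adjusted p = 0.161), -1.17 ± 0.559 for ACs against untreated (adjusted p = 0.343) and -0.84 ± 0.455 for HDAC3-/- against HDAC3f/f with ACs (adjusted p = 0.261). With the correction for gene length and GC content, ACs against NACs passed (-1.24, adjusted p = 0.0447). In the order of group means, the ranges of all 5 neighbouring pairs of groups overlapped for each of the 10 genes, from the highest group (untreated HDAC3-/- at 424 CPM for H2-Ab1) to the lowest (untreated HDAC3f/f at 191).

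**Figure D4:**
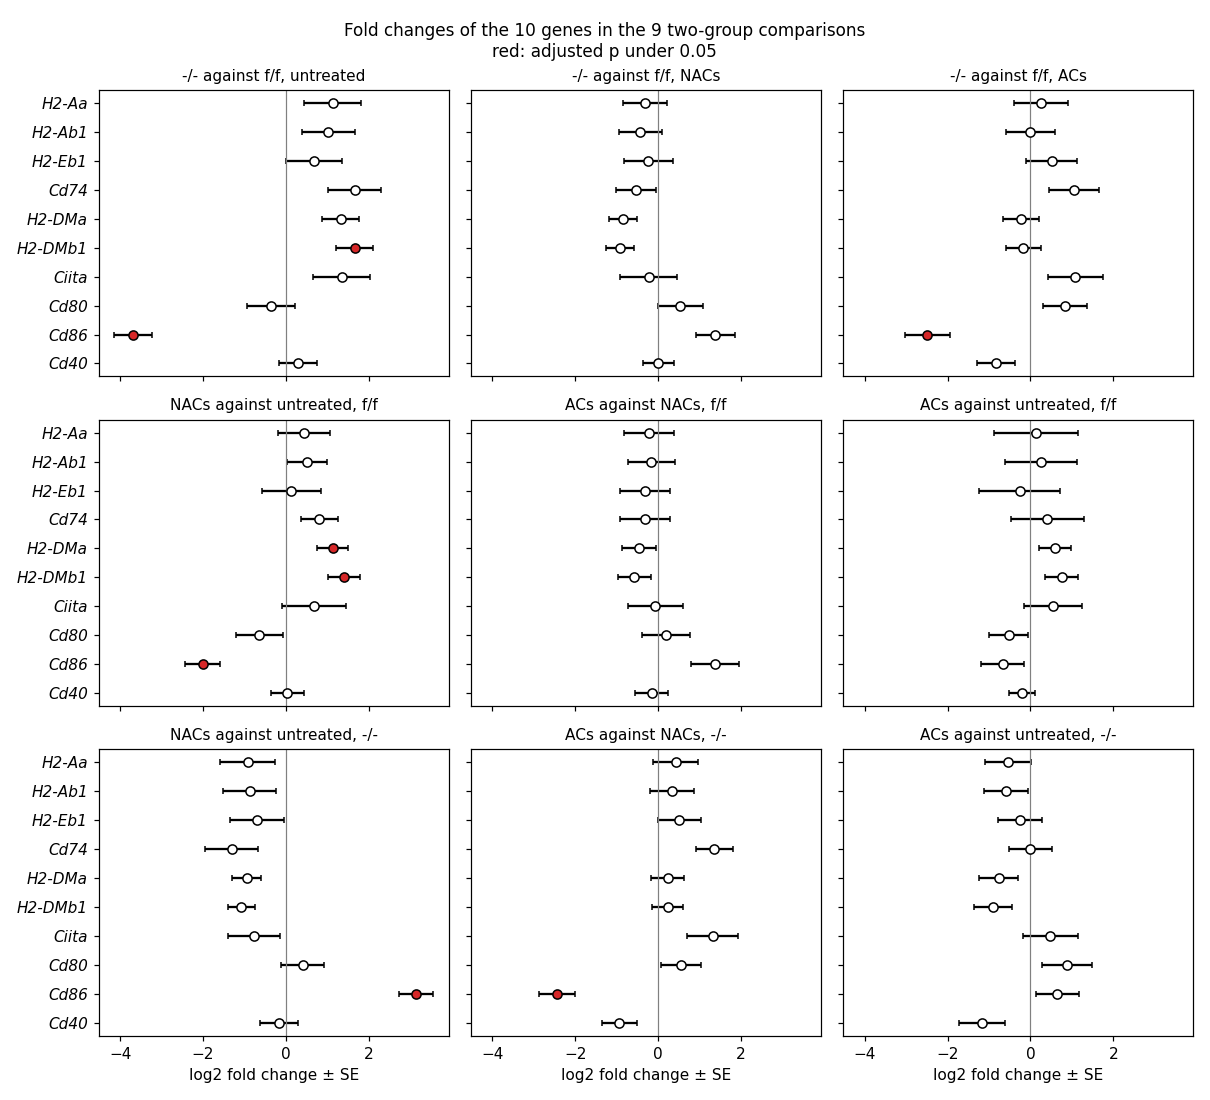
Log2 fold changes with their standard errors of the 10 genes in the 9 comparisons of 2 groups (-/-, HDAC3-/-; f/f, HDAC3f/f). Red points passed an adjusted p of 0.05 in edgeR, which holds for Cd86 in 5 panels, H2-DMb1 in 2 and H2-DMa in 1.

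Counted over the genes, between labels 1 of 10 was called with ACs (3.75% of all genes tested), 0 with NACs (0.864%) and 2 untreated (11.6%). The median log2 fold change of the 10 was 0.12, -0.28 and 1.07, and over all genes tested it was -0.01, -0.003 and 0.06. With NACs, edgeR gave 3 of the 10 an unadjusted p below 0.05 (24.2% of all genes) and DESeq2 called 0. In HDAC3f/f cells, 3 were called for NACs against untreated (8.52%), 0 for ACs against NACs (0% of all genes) and 0 for ACs against untreated (0%). In the latter 2 comparisons edgeR gave 1 and 0 of the 10 an unadjusted p below 0.05, against 493 and 1551 of all genes, and DESeq2 called 0 of the 10 and 0 and 4 of all genes. In HDAC3-/- cells, 1 was called for NACs against untreated (6.54%), 1 for ACs against NACs (7.38%) and 0 for ACs against untreated (0%). In the last, edgeR gave 1 of the 10 and 1761 of all genes an unadjusted p below 0.05, and DESeq2 called 0 and 13. Of the differences between genotypes, 0 were called for ACs against NACs (0.0765%) and 0 for ACs against untreated (0%), where edgeR gave 1 and 2 of the 10 an unadjusted p below 0.05 and DESeq2 called 1 in each. Among all genes, edgeR gave 2620 of 13076 and 3188 of 13225 an unadjusted p below 0.05 in these differences. DESeq2 called 741 of 27887 and 1249 of 27682.

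Other genes of class II loading and turnover, a list of 11 of which 8 to 10 were tested, showed calls for a few members. March1, a ubiquitin ligase known to remove class II and CD86 from the cell surface, was at 14.8, 9.45 and 17.5 CPM in untreated HDAC3f/f libraries and 4.52, 2.45 and 1.24 in untreated HDAC3-/- libraries, a fall without overlap (-2.51 ± 0.537, edgeR, adjusted p = 0.0231). It was called in the same comparisons of treatments as Cd86, and in the same direction, with -1.38 ± 0.422 for NACs against untreated in HDAC3f/f cells (adjusted p = 0.0347), 2.35 ± 0.515 in HDAC3-/- cells (adjusted p = 0.0382) and -2.16 ± 0.455 for ACs against NACs in HDAC3-/- cells (adjusted p = 0.00477). Ctss, the cathepsin that cleaves the invariant chain, was highest in HDAC3-/- libraries with ACs, at 2105, 2818 and 1858 CPM. It was at 619, 389 and 689 in HDAC3f/f libraries with ACs (1.96 ± 0.424, adjusted p = 0.024) and at 927, 650 and 713 in HDAC3-/- libraries with NACs (1.58 ± 0.396, adjusted p = 0.016). Both differences were without overlap between groups. Between labels, 1 of 9 tested genes of this list rose with ACs (3.75% of all genes were called), 0 were called with NACs by edgeR (0.864%) and 1 fell untreated (11.6%). With the correction for gene length and GC content, March1 lost its calls between untreated labels (-1.42, adjusted p = 0.143) and with NACs (-0.68 and 1.43, adjusted p = 0.365 and 0.113), and Ctss kept both of its own. Without HDAC3-/- ACs replicate 1 edgeR called 0 genes at all between labels with ACs or between ACs and NACs in HDAC3-/- cells (1810 and 2169 with an unadjusted p below 0.05). Leaving out each library in turn, Ctss stayed between 1.78 and 2.14 and between 1.37 and 1.76 in these comparisons, with its call kept in 5 of 6 and 3 of 6 fits. March1 kept its call in 1 of 6 such fits between untreated labels, 1 of 6 and 1 of 6 for NACs in HDAC3f/f and HDAC3-/- cells, and 5 of 6 for ACs against NACs, with no change of direction.

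Among genes that act upstream of the class II promoters, the calls between untreated labels stand beside 11.6% of all genes. Of 7 genes for the RFX, NF-Y and CREB factors, 1 fell between untreated labels (Creb1, -1.79 ± 0.424, edgeR, adjusted p = 0.0292). Creb1 also fell from NACs to ACs in HDAC3-/- cells (-1.31 ± 0.413, adjusted p = 0.0482). Of 8 genes of the interferon gamma pathway, Jak2 and the receptor chain Ifngr1 were lower in untreated HDAC3-/- than HDAC3f/f libraries (-1.74 ± 0.444 and -1.58 ± 0.435, adjusted p = 0.0331 and 0.0392). Ifngr1 also fell with NACs in HDAC3f/f cells (-1.33 ± 0.382, adjusted p = 0.0283) and rose with NACs in HDAC3-/- cells (1.67 ± 0.35, adjusted p = 0.0355), as did Jak2 in the latter (1.53 ± 0.394, adjusted p = 0.0484). Of 11 other ligands of T cells, 7 were tested and Cd48, a ligand of CD2 and CD244, was called with the same signs, at -2.07 ± 0.446 between untreated labels (adjusted p = 0.0237), -1.47 ± 0.392 for NACs in HDAC3f/f cells (adjusted p = 0.0247) and 1.84 ± 0.395 for NACs in HDAC3-/- cells (adjusted p = 0.0368). With the correction for gene length and GC content edgeR called 0 of all genes in these 3 comparisons (2084, 1984 and 2106 with an unadjusted p below 0.05), so each call in them was lost, with Ifngr1 at -1.18, -1.10 and 1.33 and Cd48 at -0.84, -0.97 and 0.81. Leaving out each library in turn kept the calls of Creb1, Jak2, Ifngr1 and Cd48 named above in 1 of 6 fits each, except those of Ifngr1 and Cd48 with NACs in HDAC3f/f cells, kept in 2 of 6. The added interaction for NACs against untreated called 34.8% of all genes. In it, 2 genes of the RFX, NF-Y and CREB list were called higher and 1 lower of 7, and 4 and 1 of 8 in the interferon gamma list. The counts were 2 and 1 of 7 ligands tested, 1 and 2 of 9 in the loading list and 0 and 3 of 9 in the class I list. With the correction all 3 class I calls were lost (edgeR, adjusted p = 0.149 to 0.796). Among the other genes followed by name, Nfyb, Ifngr1, Ifngr2, Cd48 and March1 kept their calls (adjusted p = 0.00515 to 0.0473). Creb1, Rfxank, Jak2, Socs1, Cd274, Vsir, Ctsz and Ifi30 lost theirs (adjusted p = 0.055 to 0.87).

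Genes of class I presentation, which displays peptides from the cytosol to CD8+ T cells, were called between labels with ACs. Of 9 tested, 3 rose in HDAC3-/- libraries with ACs (3.75% of all genes were called in either direction), namely the class I heavy chain H2-K1 (1.56 ± 0.432, edgeR, adjusted p = 0.0489), the peptide transporter subunit Tap2 (1.52 ± 0.396, adjusted p = 0.0431) and the loading factor Tapbp (1.52 ± 0.409, adjusted p = 0.0472). The median of the list was 1.02, against -0.01 over all genes. H2-K1 has close copies among the class I genes, so its counts are less certain. Untreated, only Tap2 of the 9 was called (1.52 ± 0.412, adjusted p = 0.0373; 0.49, adjusted p = 0.513, with the correction), against 11.6% of all genes, and with NACs edgeR called 0. The 3 calls with ACs held with the correction. Leaving out each library in turn kept the call of Tap2 in 1 of 6 fits and those of Tapbp and H2-K1 in 2 of 6 (adjusted p up to 0.314), all at positive fold changes of 1.28 to 1.83.

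The genes outside the 10 whose log2 CPM most resembled that of 4 of them were taken over 18 libraries, from 6772 genes with a mean of at least 10 CPM. For H2-Ab1 they were the class I genes H2-Q7, H2-Q6 and H2-Q5 (Pearson r 0.97, 0.95 and 0.94), which are near-identical copies whose reads can be split, then Ly6a (0.92) and Oasl1 (0.88). For Cd74 they were Cd5l (0.95), a secreted scavenger protein of macrophages, H2-Q6 (0.95), Ppm1h (0.94), Ndrg1 (0.93) and Eef2k (0.92). For Cd86 they were Clec4e (0.98), a C-type lectin receptor, Zfp639 (0.98), Fas (0.97), Plek (0.97) and Stx7 (0.97). For Cd40 they were Arl5c (0.89), Pigc (0.88), Tor1a (0.85), Mif4gd (0.85) and Cd83 (0.85), the last a gene of the loading and turnover list. These values describe likeness over libraries that differ in GC slope and composition, and carry no test.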

How the data were processed

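The authors deposited raw counts of reads per gene for each library, without normalization, from RNA of 18 BMDM cultures (6 groups of 3). The submitters' processing notes name Trimmomatic 0.36, STAR 2.5.2b, featureCounts of Subread 1.5.2 and GRCm38; the strand setting is not given in the sources used here, so overlapping and antisense genes could share reads. Identifiers of 48970 of the 49315 genes matched GENCODE M21, and 44772 of these had its start and end.

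Separate fits, each on the libraries compared, used edgeR 4.0.16 in R 4.3.3, with filterByExpr (minimum count 10, minimum total 15), TMM factors, robust glmQLFit, glmQLFTest and Benjamini-Hochberg adjustment over all genes tested, with a threshold of 0.05. Fold changes are log2 with standard errors (SE). Exact permutation tests were two-sided, on log2(CPM + 1). CPM per kilobase used the exon length given by featureCounts. GC slopes used genes with a mean count of at least 10. The rule for named genes was the 10 genes, list genes that passed, at most 4 a comparison, and the 5 most alike genes of H2-Ab1, Cd74, Cd86 and Cd40. List genes in the added interaction are given mainly as counts, and Flt3, Clec9a, Pax5, Ighm and Ebf1 were named after their values were seen. Members and lists were chosen with earlier results of these data known. The interaction for NACs against untreated and the GC slope were added after the data had been seen. Same-numbered replicates did not deviate together (in no comparison were all 3 correlations over 0.1), so the numbers were not used as pairs. Alternatives were library totals alone, DESeq2 1.42.0, no filter, 1 fit of all 18 libraries, the replicate number as a block, a correction for gene length and GC content (a smooth per library, mgcv 1.9.3), the block and this correction together, and each library left out. The promoters of 5 genes and all protein sequences were not used here.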

Additional observations from a re-analysis of the deposited data

Results flagged for a closer look

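The response to NACs against no treatment differed between the genotype labels for 3 of the 10 genes, by an interaction that was added after the data had been seen. The difference, HDAC3-/- minus HDAC3f/f on the log2 scale, was -1.97 for H2-DMa, -2.37 for H2-DMb1 and 5.27 for Cd86. Among all genes, 34.8% passed the same test. Leaving out any 1 of the 12 libraries kept all 3 calls, with ranges of -2.40 to -1.82, -2.80 to -2.25 and 4.62 to 5.86. With the correction for gene length and GC content the difference was -0.55 for H2-DMa, which lost its call (adjusted p = 0.353), -1.58 for H2-DMb1, which kept it (adjusted p = 0.027), and 4.07 for Cd86, which kept it (adjusted p = 0.00462), and 1732 of all 13005 genes were called. The libraries labelled untreated HDAC3f/f were those most like libraries labelled HDAC3-/- with NACs, and Hdac3 did not separate the labels; the part of either in these differences was not tested.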

How the results depend on the processing

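Of 374 refitted fold changes of the genes with an unadjusted p below 0.05, 290 kept direction and side of the threshold, 51 lost the call, 33 gained it and 0 changed direction. Between labels, the number of the 10 genes called was 1 with ACs and 0 to 2 leaving out each library; with NACs 0, 1 with no filter, 1 with the replicate block and 0 to 3 leaving out each library; and untreated 2, 1 with library totals alone, 4 with DESeq2, 3 with no filter, 3 with all 18 libraries in one fit, 3 with the replicate block, 0 with the correction for gene length and GC content, 0 with block and correction together, and 0 to 3 leaving out each library. All genes called with NACs were 103 of 11923, then 575 of 25226 with no filter and 217 with the block. Untreated they were 1404 of 12101, then 2406 with library totals alone, 3299 of 24860 with DESeq2 and 1417 of 24895 with no filter. One fit of all 18 libraries gave 3306 of 13662, the block 1336, and the correction, alone or with the block, 0. Leaving out each library gave 0 to 1693 with ACs, 0 to 3121 with NACs and 0 to 5887 untreated. For NACs against untreated in HDAC3f/f cells the number of the 10 genes called was 3, 2 with no filter, and 0 with library totals alone, 0 with all 18 libraries in one fit, 0 with the correction, 0 with block and correction, and 0 to 3 leaving out each library. All genes called there were 1015 of 11912, 454 of 26148 with no filter and 14 with block and correction. They were 0 with library totals alone, with all 18 libraries in one fit and with the correction, and 21 to 4232 leaving out each library. In HDAC3-/- cells the number of the 10 genes called was 1 for NACs against untreated, 3 with DESeq2, 2 with no filter, 0 with the replicate block, 0 with the correction, 0 with both, and 0 to 3 leaving out each library; for ACs against NACs it was 1, 2 with no filter, 2 with the replicate block, 2 with the correction, 2 with both, and 0 to 2 leaving out each library. All genes called for NACs against untreated were 794 of 12143, 2063 of 23434 with DESeq2 and 1479 of 23470 with no filter. The block, the correction and both gave 0, and leaving out each library 0 to 4441. For ACs against NACs they were 904 of 12244, and 1007 of 24050 with no filter. The block gave 1399, the correction 699, both 925, and leaving out each library 0 to 3013. For the difference between genotypes in ACs against NACs the number of the 10 genes called was 0, and 1 with DESeq2, 1 with no filter, 1 with the replicate block, 1 with the correction, 1 with both, and 0 to 1 leaving out each library; for ACs against untreated it was 0, 1 with DESeq2, and 0 to 1 leaving out each library. All genes called were 10 of 13076 for ACs against NACs, 741 of 27887 with DESeq2 and 537 of 27916 with no filter. The block gave 152, the correction 298, both 156, and leaving out each library 0 to 826. For ACs against untreated they were 0 of 13225, 1249 of 27682 with DESeq2 and 0 to 1100 leaving out each library. For the difference between genotypes in NACs against untreated the number of the 10 genes called was 3, 2 with library totals alone, 4 with DESeq2, 4 with no filter, 2 with the correction and 2 with both. All genes called were 4530 of 13005, 4002 with library totals alone, 5560 of 28150 with DESeq2 and 4271 of 28195 with no filter. The correction gave 1732 and both gave 1373. Other settings that use all libraries of a comparison left the counts of the 10 genes as they were. The cause of these changes was not tested. Library totals alone moved the median fold change of all genes by -0.479 to 0.577 log2 units and DESeq2 by -0.727 to 0.206.

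The replicate numbers share no stated animal or day, and the block took the number of all genes called from 103 to 217 between labels with NACs and from 794 to 0 for NACs against untreated in HDAC3-/- cells. With 3 libraries a group, the class II chains had standard errors of 0.486 to 1.01 log2 units between 2 groups, and Ciita and Cd80 had few counts.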
